A study of Homo sapiens with 6 samples.

Results

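The 8 genes described here encode part of the SUMO pathway, the enzymes and modifiers that attach small ubiquitin-like modifier (SUMO) proteins to lysines of other proteins and remove them again. They were chosen by gene name from a table of 78932 genes and comprise the modifiers SUMO2 and SUMO3, the activating enzyme subunits SAE1 and UBA2, the ligases PIAS1 and PIAS4, and the proteases SENP1 and SENP6. RNA was measured by poly(A)-selected sequencing in T24, a human urothelial carcinoma cell line, after transfection with a control siRNA (siNC, 3 libraries) or with siRNA against TRIM28 (siTRIM28, 3 libraries). All 6 libraries carry the same batch label and are labelled as biological replicates of 1 cell line. Neither the siRNA used in these cultures nor the time between transfection and RNA extraction is given in the sources used here, and unintended targets of the siRNA were not tested.

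In SUMOylation a SUMO precursor is trimmed by a SENP protease, activated by the E1 heterodimer of SAE1 and UBA2, passed to an E2 enzyme, and joined to its target, often with the help of an E3 ligase such as a PIAS protein. SENP proteases also take SUMO off targets, so the modification is reversible. TRIM28, a transcriptional corepressor, is itself known as a SUMO E3 ligase, and the study asked whether it acts in that way on the nuclear receptor PPARG in bladder cancer cells. The comparison of siTRIM28 with siNC shows whether RNA of the rest of the SUMO machinery differed when TRIM28 RNA was lowered. It measures RNA and not SUMO attached to proteins.

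The libraries held 11712623 to 14018052 counts, and counts per 1000000 (CPM) are given after TMM scaling. TRIM28 itself lay at 104 ± 4.09 CPM (SD, n = 3) in siNC and 8.87 ± 0.658 CPM (SD, n = 3) in siTRIM28, a log2 fold change of −3.54 (edgeR quasi-likelihood, Benjamini-Hochberg adjusted p = 1.03e-10, SE 0.0723). The epithelial keratins KRT8 and KRT18 held 1070 to 1680 counts per library, and KRT7 held 37 to 58. KRT19, KRT5, EPCAM, CDH1 and UPK2 held 0 to 7, so these epithelial or urothelial markers were close to 0 in this line. Of 7 markers of blood, endothelial, muscle and liver cells none was tested, with PECAM1 the most abundant at 4 to 11 counts. siNC replicates 1 and 2 lay close to each other, with a chi-square per degree of freedom of 1.08, as did siTRIM28 replicates 2 and 3 with 1.24, while within-group pairs holding siNC replicate 3 or siTRIM28 replicate 1 gave 4.60 to 6.99. Both close pairs still differed by more than counting noise and were kept as separate libraries, and summing them was an alternative.

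Of the 8 genes, 4 fell after TRIM28 knockdown, 1 rose and 3 did not pass the test (edgeR quasi-likelihood, adjusted p under 0.05). SAE1 showed the largest difference and lay 43.6% lower in siTRIM28. SENP6, SUMO3 and UBA2 lay 22.3%, 21.7% and 19.2% lower. PIAS1 lay 13.9% higher, and SUMO2, PIAS4 and SENP1 were not called. These counts stand against a broad response, in which 41.8% of the 18474 genes tested were called, 21.3% higher and 20.5% lower. In 6 of the 8 genes the 3 values of one group did not overlap those of the other, against 52.0% of all genes tested. A log2 fold change of 0.58 or more in either direction, with the adjusted p, was reached by SAE1 alone among the 8, against 17.0% of all genes tested. The median log2 fold change was −0.17 over the 8 genes and 0.02 over all genes tested. In RNA from a whole culture, fewer cells with a transcript and less transcript per cell cannot be told apart. An exact permutation test of 3 against 3 libraries cannot give a p under 0.1, and this value was reached by every gene whose groups did not overlap.

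SUMO2 (ENSG00000188612, chr17:75165586-75182959, minus strand) and SUMO3 (ENSG00000184900, chr21:44805617-44818779, minus strand; all positions are GRCh38) encode closely related modifiers that can form chains. Their promoters are shown because the RNA of SUMO3 fell while that of SUMO2 was not called. The sequences come from the RefSeq table of GRCh38.p14, in which 7 of the 8 genes have an entry. Each is the stretch upstream of the RefSeq start that holds no exon of the gene in GENCODE 29, and that of SUMO3 lies inside the span of the gene in the deposited table. Capitals mark matches on either strand to the GC box GGGCGG or the CCAAT box.
SUMO2 promoter, chr17:75182984-75183209, minus strand: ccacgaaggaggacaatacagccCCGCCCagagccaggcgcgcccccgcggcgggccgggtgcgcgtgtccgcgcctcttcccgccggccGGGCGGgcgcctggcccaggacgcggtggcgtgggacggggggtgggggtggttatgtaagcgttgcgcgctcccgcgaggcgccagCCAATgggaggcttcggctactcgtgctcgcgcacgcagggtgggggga
SUMO3 promoter, chr21:44818130-44818312, minus strand: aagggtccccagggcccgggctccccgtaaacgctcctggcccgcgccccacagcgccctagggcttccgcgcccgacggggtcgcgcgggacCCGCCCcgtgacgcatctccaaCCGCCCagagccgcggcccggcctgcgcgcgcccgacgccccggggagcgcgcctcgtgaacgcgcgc
Both stretches held 2 GC boxes, and the SUMO2 stretch held a CCAAT box that the SUMO3 stretch lacked. The 7 genes have 10 RefSeq windows of 250 bases before a start, because PIAS1 and SENP1 have several. A GC box was found in 7 of these 10 windows and in 42.6% of 35116 RefSeq windows, and CCAAT in 2 of the 10, those of SUMO2 and PIAS4, and in 32.0% of all. The E-box CACGTG lay in 2 of the 10, those of SUMO3 and PIAS4, and in 6.34% of all, for SUMO3 outside the stretch printed. These matches describe the letters of the windows and were not tested against the fold changes.

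SUMO2 had 151, 151 and 144 CPM in the 3 siNC libraries and 162, 143 and 150 CPM in the 3 siTRIM28 libraries. The groups overlapped, with siTRIM28 replicate 1 the highest and siTRIM28 replicate 2 the lowest of all 6. The means were 149 ± 3.84 and 152 ± 9.53 CPM (SD, n = 3 each), or a log2 fold change of 0.03 with a 95% interval of −0.09 to 0.14 (edgeR quasi-likelihood, adjusted p = 0.720). Of the 19 annotated pseudogenes of SUMO2, 14 had counts, and together they held 30 to 50 counts per library, 2.03% of the counts of SUMO2 itself. Reads of so similar copies may be divided between them. The SUMO2 span shares 2696 bases on the same strand with JPT1, whose log2 fold change was 0.42 (edgeR quasi-likelihood, adjusted p = 4.50e-04), and how reads in the shared part were assigned is not given in the sources used here.

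SUMO3 had 148, 148 and 139 CPM in siNC and 122, 104 and 114 CPM in siTRIM28. Every siTRIM28 library lay under every siNC library. SUMO3 fell by 0.35 on the log2 scale (95% interval −0.48 to −0.23, SE 0.0579, edgeR quasi-likelihood, adjusted p = 4.56e-04), from 145 ± 4.96 to 114 ± 8.77 CPM (SD, n = 3 each). SUMO3 has no annotated pseudogene and shares no bases with another gene of the table.

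SAE1 (ENSG00000142230, chr19:47113274-47210170, plus strand) and UBA2 (ENSG00000126261, chr19:34428352-34469116, plus strand) encode the subunits of the only SUMO E1 enzyme. SAE1 is the smaller subunit, and UBA2 carries the catalytic cysteine that accepts SUMO. SAE1 had 269, 262 and 272 CPM in siNC and 150, 150 and 152 CPM in siTRIM28. Within each group the libraries lay close together, and the groups lay far apart. SAE1 fell by 0.83 on the log2 scale (95% interval −0.91 to −0.74, SE 0.0389, edgeR quasi-likelihood, adjusted p = 3.50e-08), from 268 ± 5.03 to 151 ± 1.17 CPM (SD, n = 3 each). Ordered by log2 fold change, SAE1 was number 743 from the lowest of the 18474 genes tested. Its span shares 503 bases with ZC3H4 on the opposite strand, a gene with a mean of 271 counts and a log2 fold change of −0.68 (edgeR quasi-likelihood, adjusted p = 4.49e-05). The library kit marks strand, but whether the counting used it is not given in the sources used here, so reads in the shared part cannot be assigned to either gene with certainty. SAE1 counts were 1782 to 3738 per library, and its pseudogene SAE1P1 held 0 to 4.

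UBA2, the most abundant of the 8 by CPM, had 409, 402 and 422 CPM in siNC and 324, 343 and 330 CPM in siTRIM28. The groups were separated, by less than for SAE1. UBA2 fell by 0.31 on the log2 scale (95% interval −0.39 to −0.22, SE 0.0397, edgeR quasi-likelihood, adjusted p = 7.95e-05), from 411 ± 10.1 to 332 ± 9.69 CPM (SD, n = 3 each). UBA2 has no annotated pseudogene and shares no bases with another gene.

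RWDD3, which encodes RSUME, a protein that promotes SUMO conjugation, fell by 0.57 on the log2 scale, from 12.8 ± 0.752 to 8.69 ± 0.964 CPM (SD, n = 3 each, edgeR quasi-likelihood, adjusted p = 9.16e-04).

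The PIAS ligases help to pass SUMO to nuclear targets. PIAS1 (ENSG00000033800, chr15:68054309-68198603, plus strand) had 52.6, 51.1 and 52.8 CPM in siNC and 61.6, 55.8 and 60.6 CPM in siTRIM28. All 3 siTRIM28 libraries lay above the siNC libraries, replicate 2 by the least. PIAS1 rose from 52.1 ± 0.927 to 59.4 ± 3.11 CPM (SD, n = 3 each), or a log2 fold change of 0.19 (95% interval 0.06 to 0.32, SE 0.0584, edgeR quasi-likelihood, adjusted p = 0.0221). This call was the least secure of the 5. It was lost with DESeq2, without the filter on low counts, with the close pairs summed and without siNC replicate 1, siNC replicate 2 or siTRIM28 replicate 3, where the adjusted p lay between 0.0560 and 0.101 and the log2 fold change between 0.17 and 0.19. PIAS1 overlaps 2 genes on the opposite strand, CALML4 with a mean of 249 counts and ENSG00000260007 with 318, which had log2 fold changes of −0.18 and −0.10 and were not called.

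PIAS4 (ENSG00000105229, chr19:4007736-4039386, plus strand) was the least abundant of the 8, with 109 to 131 counts per library, where the counting error alone reached 9.58%. It had 8.78, 8.31 and 8.86 CPM in siNC and 9.36, 9.71 and 9.21 CPM in siTRIM28. The groups did not overlap, yet the distance between the nearest libraries was smaller than that counting error. The means were 8.65 ± 0.300 and 9.42 ± 0.260 CPM (SD, n = 3 each), and the log2 fold change of 0.12 had a 95% interval of −0.09 to 0.34 (edgeR quasi-likelihood, adjusted p = 0.368). A difference of the size seen for PIAS1 lies inside this interval and was not detectable for PIAS4 at this depth.

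The SENP proteases oppose the ligases. SENP1 trims SUMO precursors and releases SUMO from targets, and SENP6 mainly shortens chains of SUMO2 and SUMO3. SENP1 (ENSG00000079387, chr12:48039784-48106046, minus strand) had 42.5, 40.5 and 41.5 CPM in siNC and 36.7, 43.9 and 41.3 CPM in siTRIM28. The siTRIM28 libraries included both the lowest and the highest of the 6. The means were 41.5 ± 0.979 and 40.6 ± 3.65 CPM (SD, n = 3 each), or a log2 fold change of −0.03 with a 95% interval of −0.19 to 0.13 (edgeR quasi-likelihood, adjusted p = 0.758). SENP1 shares 908 bases with PFKM on the opposite strand, which had a mean of 832 counts and a log2 fold change of 0.13 (edgeR quasi-likelihood, adjusted p = 0.0944).

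SENP6 (ENSG00000112701, chr6:75601509-75718281, plus strand) had 116, 119 and 120 CPM in siNC and 87.8, 94.0 and 94.4 CPM in siTRIM28. The groups were separated, with siTRIM28 replicate 1 the lowest. SENP6 fell by 0.36 on the log2 scale (95% interval −0.47 to −0.26, SE 0.0477, edgeR quasi-likelihood, adjusted p = 8.85e-05), from 118 ± 2.06 to 92.1 ± 3.72 CPM (SD, n = 3 each). None of the 4 genes that overlap SENP6 on the opposite strand held 10 counts in a library.

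Within each role the paired genes were compared inside the same library, where the ratio does not depend on the scaling between libraries. The log2 ratio of SUMO2 to SUMO3 was 0.03, 0.03 and 0.05 in siNC and 0.40, 0.45 and 0.40 in siTRIM28, so the genes were near equal by CPM in siNC and SUMO2 led in every siTRIM28 library. The difference in this ratio was 0.38 (exact permutation p = 0.1, the smallest that 3 against 3 libraries allow, and 0.133 after adjustment over 4 pairs). The log2 ratio of SAE1 to UBA2 moved from −0.62 ± 0.0168 to −1.14 ± 0.0441 (SD, n = 3 each), a difference of −0.52 with the same exact p and no overlap. The log2 ratio of SENP1 to SENP6 moved from −1.51 ± 0.0547 to −1.18 ± 0.0800, a difference of 0.33, again with that exact p and no overlap. The log2 ratio of PIAS1 to PIAS4 was 2.57 ± 0.0239 and 2.63 ± 0.113 (SD, n = 3 each), with overlapping groups and an exact permutation p of 0.4. Thus 3 of the 4 ratios separated the groups in all 6 libraries, and none could pass an adjusted threshold in this design. No share was computed for ratios of other gene pairs, and 52.0% of all single genes tested separated the groups by CPM. Without a share for ratios, whether the count of separated ratios is particular to these pairs cannot be told, and it is not read as a result about them.

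Levels of different genes were compared per length, as transcripts per 1000000 (TPM) from the counts and the total exon length in the table. This length includes rarely used exons, which lowers the TPM of genes that have long ones. In siNC the order was UBA2 (224 ± 3.69 TPM), SAE1 (187 ± 2.90 TPM), SUMO3 (139 ± 6.05 TPM), SUMO2 (117 ± 4.09 TPM), SENP6 (27.2 ± 0.305 TPM), PIAS1 (12.8 ± 0.204 TPM), SENP1 (11.5 ± 0.312 TPM) and PIAS4 (6.37 ± 0.200 TPM), each with n = 3, and no neighbours in this order overlapped over the libraries. The modifiers and the E1 subunits thus lay above the ligases and proteases. In siTRIM28 SAE1 dropped by its mean from the second to the fourth place, at 102 ± 3.38 TPM, after UBA2 (175 ± 8.75 TPM), SUMO2 (115 ± 4.95 TPM) and SUMO3 (105 ± 6.36 TPM). There the ranges of SUMO2 and SUMO3 overlapped, but SUMO2 lay above SUMO3 in each library. SUMO3 lay above SAE1 in siTRIM28 replicates 1 and 3 and under it in replicate 2 (98.0 against 103 TPM). The order of SUMO3 and SAE1 was therefore not resolved. The ranks of SENP6, PIAS1, SENP1 and PIAS4 were as in siNC.

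The TPM ratio of UBA2 to SAE1 was 1.19 ± 0.0139 in siNC and 1.71 ± 0.0527 in siTRIM28 (SD, n = 3 each). These subunits form a heterodimer, and this ratio is of their RNA only. SUMO2 and SUMO3 summed to 256 ± 10.1 TPM in siNC and 220.0 ± 11.3 TPM in siTRIM28. Of this sum, the part from SUMO3 was 54.4% ± 0.215 in siNC and 47.8% ± 0.463 in siTRIM28 (SD, n = 3 each), with no overlap. SUMO3 was therefore the larger part per length in each siNC library, and SUMO2 in each siTRIM28 library. Which of them was larger in siNC depends on the exon lengths used, 3348 bases for SUMO2 and 2732 for SUMO3. By CPM, which is not divided by length, the log2 ratio of SUMO2 to SUMO3 in siNC was 0.03, 0.03 and 0.05.

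A further 22 genes of the pathway were read from the same fit, of which 21 were tested and SUMO4, at 1 to 3 counts per library, was not. Among them 6 rose, 3 fell and 12 were not called, and their median log2 fold change was 0.03. The 9 of 21 called were close to the 41.8% called over all genes tested. One of the 21, DESI2, was called and passed the fold threshold, against 17.0% of all genes tested. Among 7 further ligases, RANBP2 and TOPORS rose and PIAS3 fell. RANBP2, a nuclear pore protein with SUMO ligase activity, rose by a log2 fold change of 0.29 (122 ± 4.47 to 149 ± 4.60 CPM, edgeR quasi-likelihood, adjusted p = 3.77e-04). TOPORS, which has both ubiquitin and SUMO ligase activity, had one of 0.22 (edgeR quasi-likelihood, adjusted p = 0.00146). PIAS3 fell by 0.37 on the log2 scale, from 23.5 ± 0.449 to 18.1 ± 0.665 CPM (SD, n = 3 each, edgeR quasi-likelihood, adjusted p = 7.00e-04). In the main fit PIAS1 was thus called higher, PIAS3 lower, and PIAS2 and PIAS4 were not called. The call of PIAS1 was lost in 6 of the 15 other fits.

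Among 7 further SUMO proteases, DESI2, of the DeSI family, fell by 0.71 on the log2 scale (16.0 ± 0.546 to 9.80 ± 0.690 CPM, SD, n = 3 each, edgeR quasi-likelihood, adjusted p = 3.61e-05). SENP7, which like SENP6 acts on SUMO chains, had a log2 fold change of 0.22 (edgeR quasi-likelihood, adjusted p = 0.0183), in the opposite direction to SENP6. The call of SENP7 was lost with DESeq2 and in each fit that left out a siNC library, whereas SENP6 kept its call in all fits. SENP2, SENP3, SENP5, DESI1 and USPL1 were not called. SENP3 shares its span with a readthrough transcript and its count is uncertain.

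Among 6 proteins that bind SUMO, 3 rose and none fell, against 21.3% called higher and 20.5% called lower over all genes tested, and of the 3 that rose RNF111 did not keep its call in 7 of the 15 other fits. ATRX, a chromatin remodeller of PML nuclear bodies, rose from 289 ± 4.25 to 424 ± 13.5 CPM (SD, n = 3 each), or a log2 fold change of 0.56 (edgeR quasi-likelihood, adjusted p = 6.80e-07). RNF4, a ubiquitin ligase that recognizes SUMO chains, rose from 37.0 ± 1.89 to 52.3 ± 4.54 CPM (SD, n = 3 each), or a log2 fold change of 0.50 (edgeR quasi-likelihood, adjusted p = 2.24e-04). RNF111, another ubiquitin ligase of this kind, had a log2 fold change of 0.18 (edgeR quasi-likelihood, adjusted p = 0.0229). The nuclear body proteins PML, SP100 and DAXX were not called. The fits in which SENP7 and RNF111 were not called included DESeq2 and each fit that left out a siNC library, 7 in all for both genes, and the call of TOPORS was lost with the close pairs summed.

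**Figure D1:**
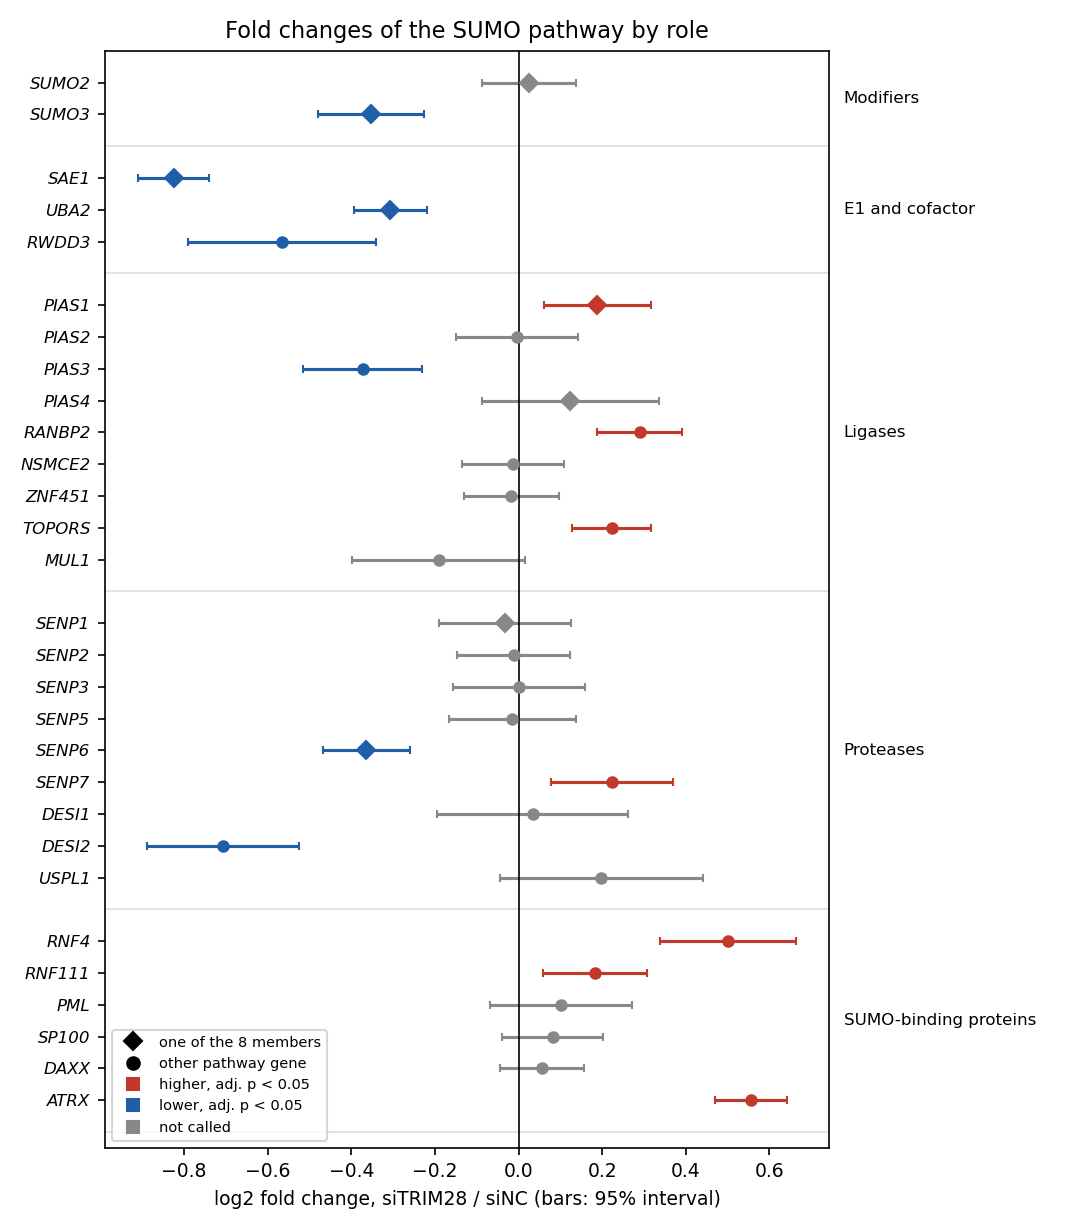
Log2 fold change of siTRIM28 over siNC (horizontal axis) with its 95% interval for the 8 genes and the 21 further tested genes of the SUMO pathway, grouped by role, with diamonds for the 8 genes, circles for other pathway genes, and colours for genes called higher (red), lower (blue) or not called (grey). SAE1 at −0.83 and DESI2 at −0.71 lie farthest to the left, and RNF4 at 0.50 and ATRX at 0.56 farthest to the right.

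For each of the 5 called genes, the gene with the most similar pattern over the 6 libraries was found among 11339 genes with a symbol and a mean of at least 50 counts, by Pearson's r of log2 CPM. The most similar genes were SCARA3 for SAE1 (r = 0.9996), ALG5 for SUMO3 (r = 0.9998), UTP14A for UBA2 (r = 0.9990), ZNF561 for SENP6 (r = 0.9998) and DEDD for PIAS1 (r = 0.996). The 6 points of each correlation share the difference between the groups and the same libraries, so a high r is common, and 1589 genes reached at least 0.95 with SAE1 but 136 with PIAS1.

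The 4 genes that fell were called under every alternative test, scaling and filter, and with any library left out. SAE1 kept a log2 fold change between −0.85 and −0.79, SENP6 between −0.40 and −0.33, SUMO3 between −0.41 and −0.31, and UBA2 between −0.34 and −0.27.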

How the data were processed

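Poly(A) RNA of 6 T24 cultures, 3 per group, was sequenced from stranded libraries. The authors deposited raw read counts per gene for 78932 genes with GRCh38 coordinates and gene lengths. The submitters' processing notes name fastp 0.23.1, STAR 2.7.6a, featureCounts and GRCh38. Their parameters, the annotation release, the strand setting and the treatment of duplicate and shared reads are not given in the sources used here. NEDD8 and the readthrough gene NEDD8-MDP1 held nearly equal counts. A second deposited table, of length-normalized values for genes the authors selected as differentially expressed, was not used.

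Groups came from the sample labels. The 8 genes and all lists were chosen with earlier results of these data known. The 18474 genes that reached 10 counts in 3 or more libraries were tested with edgeR 4.0.16 (glmQLFit and glmQLFTest, TMM, condition only) in R 4.3.3, with Benjamini-Hochberg adjustment over all of them and a threshold of 0.05, after a run on simulated data. Log2 fold changes are siTRIM28 minus siNC, the SE is the size of the change over the root of the F statistic, and 95% intervals use the same fit. Exact two-sided permutation tests used log2 CPM with a prior count of 2. The p-values measure the spread between the labelled biological replicates, and treat siNC replicates 1 and 2, and siTRIM28 replicates 2 and 3, as separate although they lay close together. With these pairs summed, the edgeR adjusted p was 5.52e-05 for SAE1 and 0.0123 for SUMO3. That fit called 5876 of 18867 genes, against 7723 of 18474 in the main fit. Alternatives were DESeq2 1.42.0, limma-voom (limma 3.58.1), scaling by RLE, upper quartile or totals, no filter, 10 counts in every library, a replicate block, close pairs summed, a threshold of 0.01, for the ratios a prior count of 0.5, and leaving out each library. Python 3.11.15 was used for ratios, TPM, promoter motifs and figures.

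Named genes were the 8, TRIM28, every further listed SUMO pathway gene called, genes of other ubiquitin-like routes called with a log2 fold change of 0.58 or more in size, and the most similar gene to each called member. Overlapping genes, SUMO pathway genes that were not called, and the genes of other routes named with smaller changes were named after their values were seen. Of 8 epithelial markers 3 were tested and KRT7 and KRT8 were called higher, with log2 fold changes of 0.56 and 0.14, and their part in the results was not tested. Some further genes of the SUMO pathway and the other routes are not reported here.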

Additional observations from a re-analysis of the deposited data

How the results depend on the processing

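The calls of SUMO3, SAE1, UBA2 and SENP6 as lower, and the absence of a call for SUMO2, PIAS4 and SENP1, held under all 15 alternatives to each fold change. PIAS1 kept its direction and lost its call with DESeq2 (log2 fold change 0.18, adjusted p = 0.0858), without the filter on low counts (0.18, adjusted p = 0.0560 by edgeR) and with the close pairs summed (0.18, adjusted p = 0.101 by edgeR). With 1 library left out its log2 fold change ranged from 0.16 to 0.22, and the call was lost without siNC replicate 1 (0.19), siNC replicate 2 (0.17) or siTRIM28 replicate 3 (0.17). The number of the 8 genes called higher was therefore 0 with DESeq2, no filter, close pairs summed and the threshold of 0.01, and 0 to 1 with a library left out, although 1 had an unadjusted p under 0.05 in every fit. The other SUMO pathway genes called higher numbered 3 instead of 6 with the close pairs summed. They numbered 4 with DESeq2, no filter, the threshold of 0.01, any siNC library left out, or siTRIM28 replicate 3 left out. With 1 library left out SUMO2 ranged from −0.02 to 0.06 and SENP1 from −0.10 to 0.04 on the log2 scale, and the differences in ratio ranged from 0.37 to 0.39 for SUMO2 to SUMO3, −0.53 to −0.49 for SAE1 to UBA2, 0.03 to 0.13 for PIAS1 to PIAS4 and 0.29 to 0.37 for SENP1 to SENP6. The cause of these movements was not tested.

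Deviations of libraries with the same replicate number correlated by only 0.05, −0.01 and 0.04, so the numbers were not used as pairs. The fit with a replicate block changed no call among the 8 genes and called 7910 of all genes tested instead of 7723, and an exact sign-flip test of the 3 paired ratio differences gave p = 0.25, the smallest it can give, for the 3 ratios that separated the groups and 0.5 for PIAS1 to PIAS4. Upper-quartile scaling raised the part of calls that were higher from 51.1% to 56.6%. Depth limits PIAS4 most.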

Other observations

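Genes of other ubiquitin-like conjugation routes were read from the same fit. Of 17 listed, 16 were tested, 6 rose, 5 fell and their median log2 fold change was 0.10, against 21.3% called higher and 20.5% called lower over all genes tested. Of 5 tested genes of the NEDD8 route, which activates cullin ligases, 2 fell and 1 rose. NEDD8 had 416, 430 and 396 CPM in siNC and 305, 206 and 200.2 CPM in siTRIM28, with siTRIM28 replicate 1 between the siNC libraries and the other siTRIM28 libraries. Its log2 fold change was −0.80 (edgeR quasi-likelihood, adjusted p = 3.05e-04), and −1.02 without that replicate. NEDD8 held 2371 to 5954 counts per library and the readthrough gene NEDD8-MDP1, which spans it, 2404 to 5989, so the same reads may have been counted for both. UBE2F, an E2 enzyme for NEDD8, fell by 0.62 on the log2 scale, from 5.99 ± 0.330 to 3.87 ± 0.724 CPM (SD, n = 3 each, edgeR quasi-likelihood, adjusted p = 0.00934).

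Of 5 genes of the ISG15 route, whose modifier is induced by interferon, 3 rose, against the 21.3% called higher over all genes. ISG15 rose from 5.89 ± 0.803 to 15.1 ± 2.99 CPM (SD, n = 3 each), or a log2 fold change of 1.36 (edgeR quasi-likelihood, adjusted p = 2.57e-05). HERC5, its main ligase, rose from 9.15 ± 0.556 to 18.0 ± 0.560 CPM, or a log2 fold change of 0.98 (edgeR quasi-likelihood, adjusted p = 2.08e-06). USP18, which removes ISG15, had a log2 fold change of 0.41 (edgeR quasi-likelihood, adjusted p = 0.0217), and this call was lost in 5 of the 15 other fits, DESeq2 among them, where the adjusted p lay between 0.0624 and 0.0940. Of 4 genes of the UFM1 route 3 fell, against 20.5% of all genes, with log2 fold changes of all 4 between −0.33 and −0.10. The call of UFC1 was lost in 2 of the 15 other fits, as was that of UFSP2. Of the ubiquitin-activating enzyme genes, UBA6 rose by a log2 fold change of 0.55 and was called under all 15 other fits, and UBA1 had one of 0.19 (edgeR quasi-likelihood, adjusted p = 0.0447), a call that was lost in 9 of them.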
